A study of Mus musculus with 8 samples.

Results

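Branched-chain amino acid (BCAA) catabolism was examined in tibialis anterior (TA) muscle through 10 genes, *Bcat2*, *Bckdha*, *Bckdhb*, *Dbt*, *Bckdk*, *Ivd*, *Mccc1*, *Mccc2*, *Hibch* and *Hibadh*. They were taken by gene symbol from the table of counted genes, and 10 of 10 were found among its 12551 genes. RNA came from the TA, a fast-twitch muscle of the lower hindlimb, of wild-type (WT) and Klotho null (KL-/-) mice, with 4 muscles of each genotype. The labels number the muscles and do not state that each came from its own mouse, so p-values measure the spread between these samples. All were males aged 7 weeks, bred from heterozygous Klotho mice on a mixed background. The labels name no treatment, and the deletion is present in every tissue from conception, so the muscle comes from an animal without Klotho in all organs. Klotho (*Kl*) is not among the counted genes, and the genotypes rest on the labels.

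Leucine, isoleucine and valine are the amino acids that skeletal muscle itself begins to break down. A mitochondrial transaminase, BCAT2, first moves their amino group to 2-oxoglutarate. The branched-chain ketoacid dehydrogenase (BCKDH) complex then removes carbon dioxide irreversibly. It is built from a decarboxylase with an alpha subunit (*Bckdha*) and a beta subunit (*Bckdhb*), a transacylase core (*Dbt*) and a dehydrogenase shared with other complexes (*Dld*). A kinase (*Bckdk*) switches it off by phosphorylating the alpha subunit, and a phosphatase (*Ppm1k*) switches it on. Beyond the complex the pathways part: isovaleryl-CoA dehydrogenase (*Ivd*) and methylcrotonyl-CoA carboxylase (*Mccc1* for the biotin-bearing subunit, *Mccc2* for the other) serve leucine, and 3-hydroxyisobutyryl-CoA hydrolase (*Hibch*) and 3-hydroxyisobutyrate dehydrogenase (*Hibadh*) serve valine.

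WT libraries held 20860262 to 26501093 reads assigned to genes, and KL-/- libraries 22061526 to 29273758. Every member was counted at least 401 times in each library. All values are read counts scaled to library size (CPM) by TMM factors, which correct library totals for composition, and all fold changes are KL-/- over WT. Of the 10 skeletal muscle markers, 10 were detected, and their summed level was 156695 to 177781 CPM in WT and 182730 to 227583 CPM in KL-/- samples. Among fibroblast and macrophage markers 2 of 6 and 3 of 8 were past the threshold, all lower in KL-/- muscle. Over all genes 6.67% were past it and lower, and 7.35% past it and higher. Fibroblast markers summed to 727.9 to 2862 CPM in WT but 399.1 to 1270 CPM in KL-/- samples, and macrophage markers to 34.6 to 80.5 and 25.9 to 49.6 CPM. Of 6 endothelial markers 1 was lower, and of the 6 adipocyte markers counted 1 was higher, with adipocyte sums of 189.2 to 218.6 CPM in WT and 220.4 to 298.0 CPM in KL-/- samples. Most of that sum was the gene called, *Fabp4* (176.9 to 196.8 and 203.2 to 242.2 CPM), which capillary endothelium also expresses. *Adipoq*, at 0.601 to 3.23 CPM in WT and 0.746 to 9.90 CPM in KL-/- samples, overlapped, as did the other 4. All 6 adipocyte markers had positive log2 fold changes, with a median of 1.24 and the smallest, 0.27, in *Fabp4*. All 6 endothelial markers had negative ones, with a median of −0.29 and sums of 379.1 to 598.3 CPM in WT and 339.4 to 384.5 CPM in KL-/- samples. *Plin1* and *Lep*, which define adipocytes, were not among the counted genes, and no marker counted was at 0 in any library. The part of these cells in the results on BCAA genes was not tested, and in whole muscle fewer cells of a type and less RNA per cell cannot be told apart. KL-/- replicate 2 differed from the other KL-/- samples in *Myh2*, the type IIa myosin, at 291.6 CPM against 3445 to 5441 CPM. WT samples had 1169 to 4436 CPM of it. KL-/- replicate 2 also stood apart over all genes, by the chi-square per gene, which measures how far the counts of 2 libraries differ. It was 60.3 to 84.4 against each other KL-/- sample, and 17.8 to 27.8 between those others. The batch date of KL-/- replicate 3 differs from that of the remaining 7 libraries, so date and sample cannot be told apart there.

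Compared per length, the members spanned a wide range of levels. In WT muscle the mean ran from 97.2 ± 5.05 CPM per kilobase of exon for *Hibadh* down to 9.47 ± 1.51 for *Mccc1* (SD, n = 4), a ratio of 10.3. *Bckdha* (92.4 ± 12.9), *Bckdk* (65.3 ± 4.21) and *Ivd* (60.3 ± 9.10) followed *Hibadh*. *Hibch* (31.7 ± 1.16), *Bcat2* (26.1 ± 4.05) and *Mccc2* (19.1 ± 2.13) lay in the middle. *Bckdhb* (13.9 ± 2.55) and *Dbt* (12.1 ± 2.29) stood close to *Mccc1* at the bottom. On this scale the message of the alpha subunit of the BCKDH decarboxylase was thus far more abundant than those of its beta partner and its core. These are levels of message, not of protein. A transcript on the other strand covers 71.3% of the exonic bases of *Bckdha*. The WT ranges of *Hibadh* and *Bckdha*, of *Bckdk* and *Ivd*, of *Bckdhb* and *Dbt*, and of *Dbt* and *Mccc1* overlapped, whereas the other neighbors in the order were separated in all samples. In KL-/- muscle the span was 14.9-fold, from *Hibadh* at 115 ± 7.23 to *Mccc1* at 7.74 ± 0.641. *Ivd* and *Bckdk* exchanged places there, as did *Bcat2* and *Hibch*, each within overlapping ranges.

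**Figure D1:**
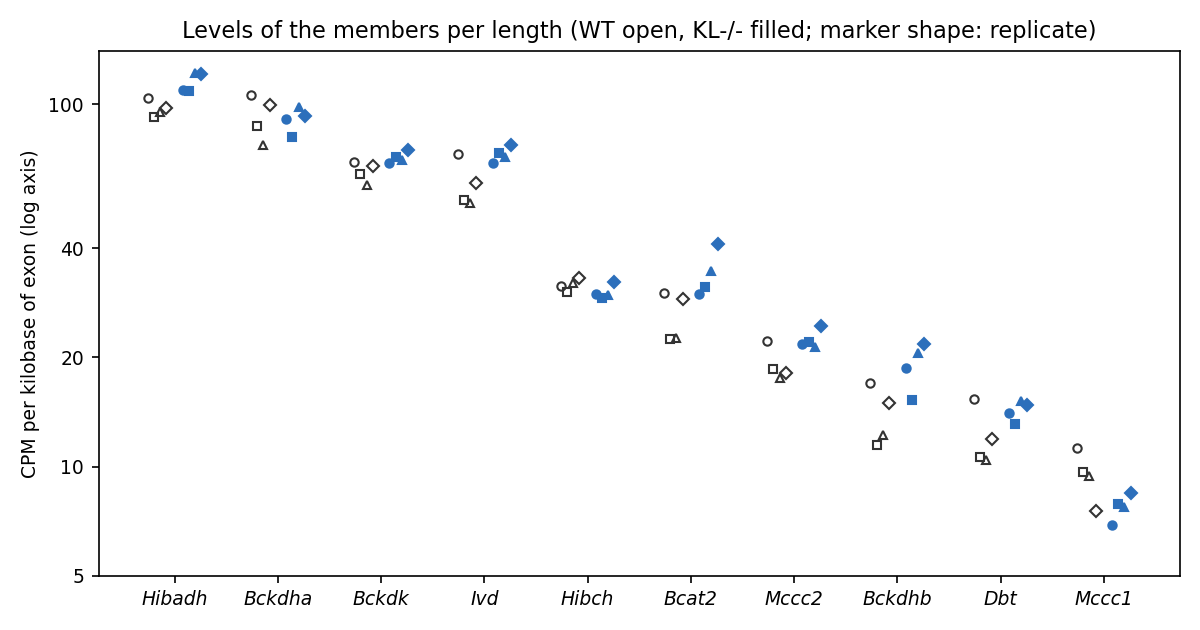
Level of each member in every sample, in TMM-normalized CPM per kilobase of exon on a log axis, with genes ordered by their WT mean. Open black symbols are WT and filled blue symbols KL-/- samples, and marker shape gives the replicate. *Hibadh* and *Bckdha* lie near 100, and *Bckdhb*, *Dbt* and *Mccc1* lie around 10.

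The question put to the data was whether these genes differ between KL-/- and WT muscle. In edgeR's quasi-likelihood test 1 of the 10 members, *Hibadh*, had a false discovery rate (FDR) under 0.05 over all genes and was higher in KL-/- muscle, and 0 were lower. Among all 12551 genes 14.0% were called, 7.35% higher and 6.67% lower, so the members' share was near the background in this test. Before adjustment 5 members were higher and 1 was lower at p under 0.05, against 15.8% and 16.4% of all genes (32.1% together). The log2 fold change was positive in 7 of the 10, with a median of 0.23, beside a median of −0.016 over all genes, and it ran from −0.29 for *Mccc1* to 0.46 for *Bckdhb*. Only *Hibadh* had every KL-/- sample above every WT sample, which 10.2% of all genes showed, and 0 members lay wholly below, against 9.47% of all genes and 19.7% in either direction. The summed level of the members was 806.8 to 996.6 CPM in WT and 945.4 to 1054 CPM in KL-/- samples, with overlap.

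**Figure D2:**
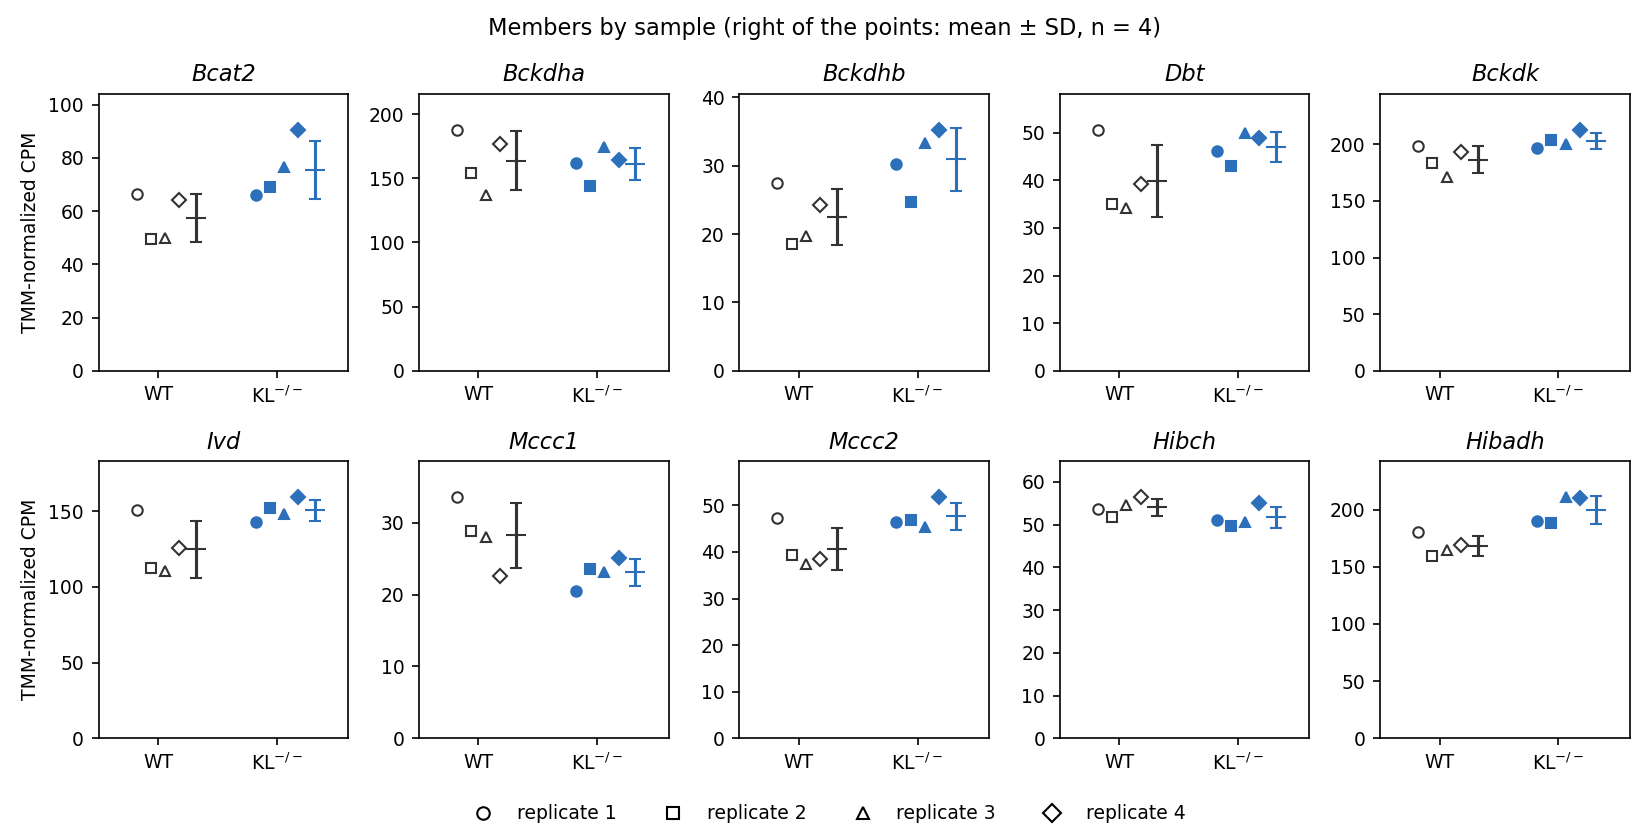
TMM-normalized CPM of the 10 members in each of the 8 samples, WT as open black and KL-/- as filled blue symbols, with marker shape for the replicate and the mean ± SD (n = 4) beside the points. WT replicate 1 is the highest WT sample in 9 of the 10 genes, and in *Hibadh* alone the genotypes do not overlap.

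*Hibadh* encodes the valine enzyme that oxidizes 3-hydroxyisobutyrate, an intermediate that can leave the mitochondrion and the cell. The gene (chromosome 6, 52546230 to 52640300 of mm10, minus strand, 8 distinct exons) was at 180, 160, 165 and 169 CPM in WT replicates 1 to 4 and at 190, 188, 211 and 210 CPM in KL-/- replicates 1 to 4. All KL-/- samples lay above all WT samples, and the closest pair was WT replicate 1 and KL-/- replicate 2. The means were 169 ± 8.76 and 200 ± 12.5 CPM (SD, n = 4). The log2 fold change was 0.25 (standard error 0.064, 95% interval 0.10 to 0.39, FDR = 0.0354 from edgeR's quasi-likelihood test), a rise of 18.6%. With 1 sample left out it stayed between 0.22 and 0.28, and the FDR was under 0.05 in 3 of 8 such fits. It went above the threshold, up to 0.100, without any of WT replicates 2, 3 and 4 or KL-/- replicates 3 and 4. Scaling by library totals lowered the median of all genes to −0.13, and the log2 fold change of *Hibadh* was 0.13 (FDR = 0.155).

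*Hibch* encodes the hydrolase that acts just before HIBADH and frees 3-hydroxyisobutyrate from coenzyme A. It lies on chromosome 1, 52845046 to 52920860, and was at 53.6, 51.7, 54.6 and 56.4 CPM in WT and at 51.2, 49.8, 50.6 and 55.1 CPM in KL-/- samples. The genotypes overlapped, and among the WT samples this was the member with the smallest SD relative to its mean. Its log2 fold change was −0.066, with a 95% interval from −0.19 to 0.063 (FDR = 0.459 in edgeR's quasi-likelihood test). With library totals it was −0.18 (FDR = 0.0548), so its size depends on the scaling.

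*Bcat2*, for the transaminase of the first step (chromosome 7, 45570153 to 45589710), was at 66.3, 49.5, 50.0 and 64.0 CPM in WT and at 65.9, 69.1, 76.5 and 90.6 CPM in KL-/- samples. WT replicate 1 lay just above KL-/- replicate 1, and the other 3 KL-/- samples exceeded all WT samples. The log2 fold change, 0.39 with a standard error of 0.13, did not pass (FDR = 0.0691, edgeR's quasi-likelihood test). It passed in edgeR's likelihood ratio test (FDR = 0.0389), in DESeq2 (FDR = 0.0264) and without KL-/- replicate 2 (FDR = 0.0490). An antisense gene covers 14.1% of its exonic bases in GENCODE M21, and whether counting used strand is not stated.

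Within the BCKDH complex neither decarboxylase subunit passed the test, and their estimates were far apart. *Bckdha* (chromosome 7, 25629852 to 25658761) was at 188, 154, 137 and 177 CPM in WT and at 162, 144, 175 and 165 CPM in KL-/- samples, so the KL-/- samples lay inside the WT range. On the log2 scale the change was −0.022 ± 0.10 (standard error; FDR = 0.901 in edgeR's quasi-likelihood test), and the sign turned positive without WT replicate 1, WT replicate 4 or KL-/- replicate 2. *Bckdhb* (chromosome 9, 83925137 to 84124240) was at 27.5, 18.5, 19.8 and 24.2 CPM in WT and at 30.3, 24.8, 33.4 and 35.3 CPM in KL-/- samples. KL-/- replicates 1, 3 and 4 lay above all WT samples, and KL-/- replicate 2 lay below WT replicate 1. *Bckdhb* had the largest log2 fold change among the members, 0.46 (standard error 0.14, FDR = 0.0638), which did not pass. Without WT replicate 1 its FDR was 0.0419, and without KL-/- replicate 2 it was 0.0201.

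*Dbt*, for the transacylase core that binds the other subunits (chromosome 3, 116513079 to 116549981), was at 50.6, 35.1, 34.3 and 39.2 CPM in WT and at 46.2, 43.0, 50.0 and 48.8 CPM in KL-/- samples. WT replicate 1 was the highest of all 8, and the other 3 WT samples lay below every KL-/- sample. The log2 fold change was 0.24 ± 0.12 (standard error; FDR = 0.198 in edgeR's quasi-likelihood test), and without WT replicate 1 it was 0.38 (FDR = 0.0279). It was lower without WT replicate 3 (0.18, FDR = 0.398) and with library totals (0.12, FDR = 0.454). The kinase gene *Bckdk* (chromosome 7, 127904073 to 127909664) was at 198, 183, 171 and 193 CPM in WT and at 196, 204, 200 and 213 CPM in KL-/- samples. The genotypes overlapped through WT replicate 1 alone. Its log2 fold change was 0.12 with a 95% interval from −0.013 to 0.26 (FDR = 0.193), and with library totals it was 0.0068.

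On the leucine branch *Ivd* (chromosome 2, 118862000 to 118881357), which encodes the flavoprotein dehydrogenase that follows BCKDH, was at 151, 112, 110 and 125 CPM in WT and at 143, 152, 148 and 159 CPM in KL-/- samples. WT replicate 1 again lay among the KL-/- samples, above KL-/- replicates 1 and 3. The log2 fold change was 0.27 ± 0.098 (standard error; FDR = 0.0928 in edgeR's quasi-likelihood test), and without WT replicate 1 it was 0.38 (FDR = 0.0194). With library totals it was 0.15 (FDR = 0.248).

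The genes for the subunits of methylcrotonyl-CoA carboxylase, an enzyme that uses biotin, had fold changes of opposite sign. *Mccc1* (chromosome 3, 35959306 to 36000678) was at 33.6, 28.8, 28.1 and 22.6 CPM in WT and at 20.5, 23.6, 23.1 and 25.1 CPM in KL-/- samples. WT replicates 1 to 3 lay above every KL-/- sample, and WT replicate 4 lay within their range. For *Mccc1* the log2 fold change was −0.29 ± 0.12 (standard error; FDR = 0.123 in edgeR's quasi-likelihood test). The FDR was 0.0386 without WT replicate 4 and 0.0318 with library totals. *Mccc2* (chromosome 13, 99948532 to 100015639) was at 47.3, 39.4, 37.4 and 38.5 CPM in WT and at 46.4, 46.9, 45.4 and 51.8 CPM in KL-/- samples. Here WT replicates 2 to 4 lay below every KL-/- sample, and WT replicate 1 lay within their range. The estimate for *Mccc2* on the same scale was 0.23 ± 0.085 (standard error; FDR = 0.0989), and without WT replicate 1 it was 0.31 (FDR = 0.0315), but with library totals 0.11 (FDR = 0.327). Neither gene passed over all samples. Genes on the opposite strand, annotated as antisense transcripts and a pseudogene, cover 10.4% of the exonic bases of *Mccc1*, and none overlap *Mccc2*.

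Ratios between partners within a sample do not depend on how libraries are scaled. Of 6 ratios formed from counts per kilobase, 4 separated the genotypes in all samples, whereas 19.7% of all pairs of counted genes did so. The pairs were chosen with earlier results known, and these ratios are given without a test. *Mccc2* to *Mccc1* was 1.98, 1.92, 1.87 and 2.40 in WT and 3.17, 2.80, 2.76 and 2.89 in KL-/- samples. The mean log2 ratio was 1.02 ± 0.163 in WT and 1.54 ± 0.0905 in KL-/- samples (SD, n = 4), so the difference of 0.51 exceeded both SDs. *Bckdhb* to *Bckdha* was 0.160, 0.132, 0.158 and 0.150 in WT and 0.205, 0.188, 0.209 and 0.234 in KL-/- samples, a log2 difference of 0.48. The beta subunit message was thus more abundant relative to the alpha subunit in every KL-/- sample, and still scarcer than it in all 8.

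*Dbt* to *Bckdha* was 0.145, 0.123, 0.135 and 0.119 in WT and 0.154, 0.161, 0.154 and 0.160 in KL-/- samples, a log2 difference of 0.27 with a gap of only 0.084 between the closest samples. *Hibadh* to *Hibch*, the consecutive valine steps, was 3.31, 3.04, 2.97 and 2.94 in WT and 3.65, 3.72, 4.10 and 3.75 in KL-/- samples, a log2 difference of 0.31 against SDs of 0.0774 and 0.0746. The kinase ratios overlapped. *Bckdk* to *Bckdha* differed by 0.14 on the log2 scale, with SDs of 0.112 and 0.130, and *Bckdk* to its opposing phosphatase *Ppm1k* by 0.035, with SDs of 0.226 and 0.275. With each sample left out in turn, the differences ranged from 0.47 to 0.59 for *Mccc2* to *Mccc1*, from 0.42 to 0.53 for *Bckdhb* to *Bckdha*, from 0.23 to 0.32 for *Dbt* to *Bckdha* and from 0.27 to 0.35 for *Hibadh* to *Hibch*. Those of *Bckdk* ranged from 0.087 to 0.19 against *Bckdha* and from −0.072 to 0.12 against *Ppm1k*, where the sign changed. *Bckdha* is the denominator of 3 ratios. In GENCODE M21 a *B3gnt8* transcript on the other strand covers 71.3% of its exonic bases, and *B3gnt8* was counted at 0.339 to 1.20 CPM. Whether counting used strand is not stated, and the effect of this overlap on the *Bckdha* count was not tested.

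**Figure D3:**
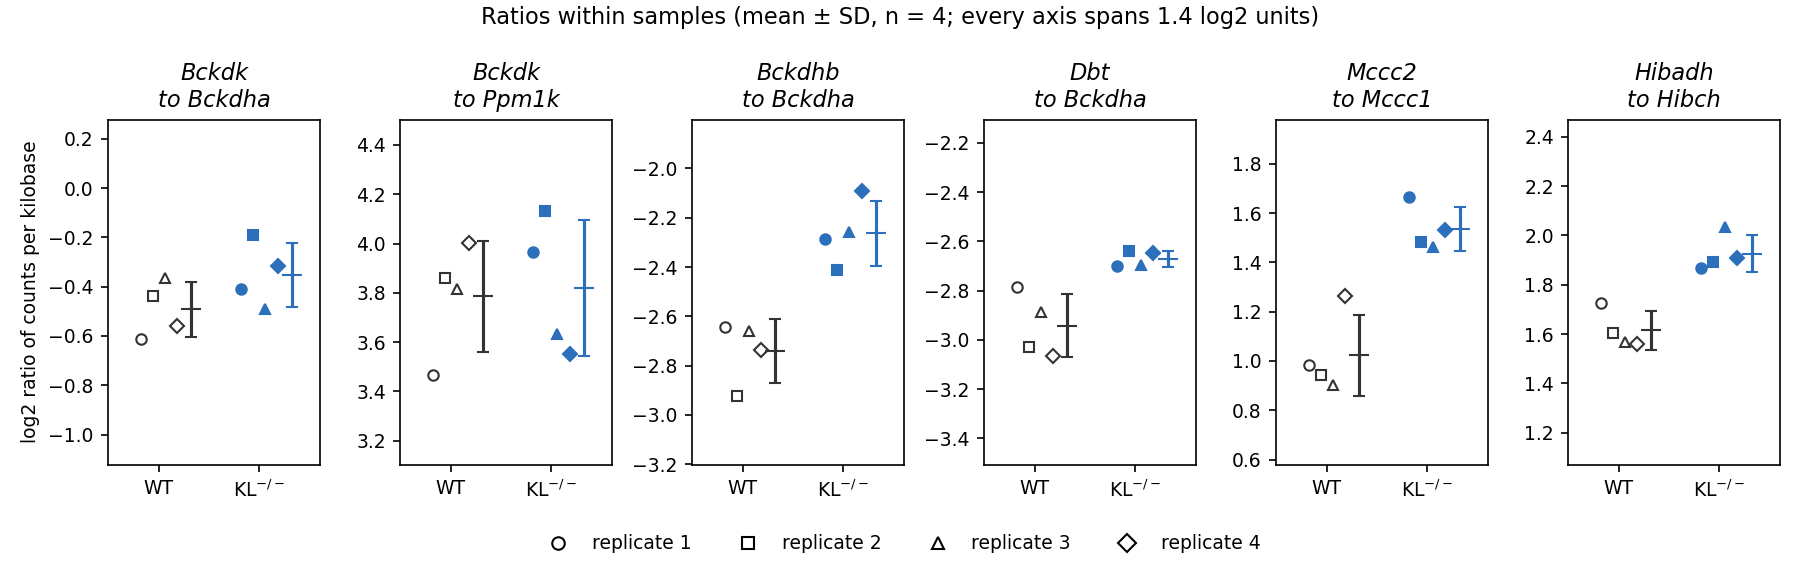
Log2 ratio of counts per kilobase for 6 pairs of genes in each sample, WT as open black and KL-/- as filled blue symbols, with marker shape for the replicate and the mean ± SD (n = 4) beside the points. In *Bckdhb* to *Bckdha*, *Dbt* to *Bckdha*, *Mccc2* to *Mccc1* and *Hibadh* to *Hibch* every KL-/- sample lies above every WT sample, and the *Bckdk* ratios overlap.

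The proximal promoters of the genes in the widest of these ratios, and of *Hibadh*, are shown as a description of these genes. Sequences are the 250 bases before the transcription start, read 5′ to 3′ on the gene's strand from RefSeq on GRCm38.p6, the same assembly as mm10. The table held a promoter at the counted start for 7 of the 10 members. Capitals mark, on either strand, GGGCGG (the GC box bound by Sp and KLF factors), CACCC (the core of the KLF box), AAGGTCA (the extended core bound by estrogen-related receptors) and CACGTG (the E-box).
*Hibadh*, chr6:52640301-52640550, minus strand: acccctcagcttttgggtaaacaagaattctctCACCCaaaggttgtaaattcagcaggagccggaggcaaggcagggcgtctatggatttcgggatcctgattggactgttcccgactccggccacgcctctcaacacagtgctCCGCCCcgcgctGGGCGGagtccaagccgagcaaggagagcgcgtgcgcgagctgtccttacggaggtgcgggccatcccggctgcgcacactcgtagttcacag
*Mccc1*, chr3:36000679-36000928, minus strand: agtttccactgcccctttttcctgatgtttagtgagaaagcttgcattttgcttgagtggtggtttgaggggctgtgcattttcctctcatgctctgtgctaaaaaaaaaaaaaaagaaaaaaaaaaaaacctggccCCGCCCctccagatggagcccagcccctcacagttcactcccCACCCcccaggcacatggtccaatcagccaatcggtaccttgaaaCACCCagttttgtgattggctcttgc
*Mccc2*, chr13:100015640-100015889, minus strand: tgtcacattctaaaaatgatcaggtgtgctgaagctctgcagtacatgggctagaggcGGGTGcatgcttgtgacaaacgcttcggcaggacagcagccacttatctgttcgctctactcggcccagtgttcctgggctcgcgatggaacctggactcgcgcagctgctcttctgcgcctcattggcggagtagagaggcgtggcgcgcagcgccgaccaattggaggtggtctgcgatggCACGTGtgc
*Bckdha*, chr7:25658762-25659011, minus strand: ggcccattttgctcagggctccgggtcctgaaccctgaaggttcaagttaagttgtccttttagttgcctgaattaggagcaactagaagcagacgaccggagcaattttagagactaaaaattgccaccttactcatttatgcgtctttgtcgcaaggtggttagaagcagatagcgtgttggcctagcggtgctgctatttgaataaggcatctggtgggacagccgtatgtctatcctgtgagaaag
*Bckdhb*, chr9:83924887-83925136, plus strand: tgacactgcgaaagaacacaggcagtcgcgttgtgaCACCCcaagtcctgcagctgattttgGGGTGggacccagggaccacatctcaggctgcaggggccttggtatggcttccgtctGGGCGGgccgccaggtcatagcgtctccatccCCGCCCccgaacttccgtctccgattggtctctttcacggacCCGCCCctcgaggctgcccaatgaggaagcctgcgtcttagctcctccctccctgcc

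Partners of an enzyme had promoters of unlike composition. *Mccc1* had 48.4% GC and an observed to expected CpG ratio of 0.141, and *Mccc2* had 58.8% GC and a ratio of 0.842, beside a median of 0.373 over 32851 promoters. *Bckdha* had 47.6% GC and none of the 4 motifs, whereas *Bckdhb* had 63.2% GC, 3 GC boxes and 2 CACCC matches. *Hibadh* had 60.8% GC, a CpG ratio of 0.866, 2 GC boxes and 1 CACCC match, *Mccc1* had 1 and 2 of these, and *Mccc2* had 1 CACCC match and 1 E-box. No matches overlapped in these sequences. Over all promoters of this length 32.7% held GGGCGG, 52% CACCC, 4.08% AAGGTCA and 6.02% CACGTG. Among the 7 members matched, GGGCGG was found in 3, CACCC in 6, CACGTG in 1 and AAGGTCA in 0, and such matches describe letters only. A link between promoter sequence and fold change was not tested.

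The rest of the pathway was read from a list of 19 further genes, of which 18 were counted. *Bcat1*, the cytosolic transaminase, was not among the counted genes. In edgeR's quasi-likelihood test 3 of the 18 passed, all of them higher in KL-/- muscle, and 0 were lower. Among all genes 14.0% were called, 7.35% higher and 6.67% lower, so the share called in either direction was near the background. The log2 fold change was positive in 15, with a median of 0.12. *Hsd17b10*, for the isoleucine enzyme that oxidizes methyl-hydroxybutyryl-CoA, averaged 37.4 ± 3.55 CPM in WT muscle and rose to 52.2 ± 5.70 CPM without Klotho (SD, n = 4; log2 fold change 0.48, FDR = 0.0140). *Aldh6a1*, for the methylmalonate semialdehyde dehydrogenase that takes up the product of HIBADH, rose from 172 ± 25.4 to 231 ± 7.28 CPM (log2 fold change 0.43, FDR = 0.0226). The genotypes did not overlap in either gene. *Acadsb*, for the short branched-chain acyl-CoA dehydrogenase of the isoleucine branch, had a log2 fold change of 0.29 (FDR = 0.0481).

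*Echs1*, for the enoyl-CoA hydratase between ACAD8 and HIBCH on the valine branch, was at 138, 119, 108 and 114 CPM in WT and at 170, 121, 175 and 188 CPM in KL-/- samples. KL-/- replicate 2 lay below WT replicate 1, and the other 3 KL-/- samples lay above all WT samples. Its log2 fold change of 0.45 was larger than those of *Aldh6a1* and *Hibadh* but did not pass (FDR = 0.0525), although it passed in DESeq2 (FDR = 0.0129) and in the likelihood ratio test (FDR = 0.0215). *Acad8*, for the dehydrogenase before it, had a log2 fold change of 0.025 (FDR = 0.799). *Hsd17b10* kept an FDR under 0.05 in 8 of 8 fits with 1 sample left out, *Aldh6a1* in 4 and *Acadsb* in 2. The remaining BCKDH components gave log2 fold changes of 0.11 for *Dld* (FDR = 0.289) and 0.096 for *Ppm1k* (FDR = 0.731). *Slc25a44*, for a mitochondrial carrier of BCAAs, gave 0.079 (FDR = 0.530). With library totals the last 3 turned to −0.0081, −0.021 and −0.039.

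**Figure D4:**
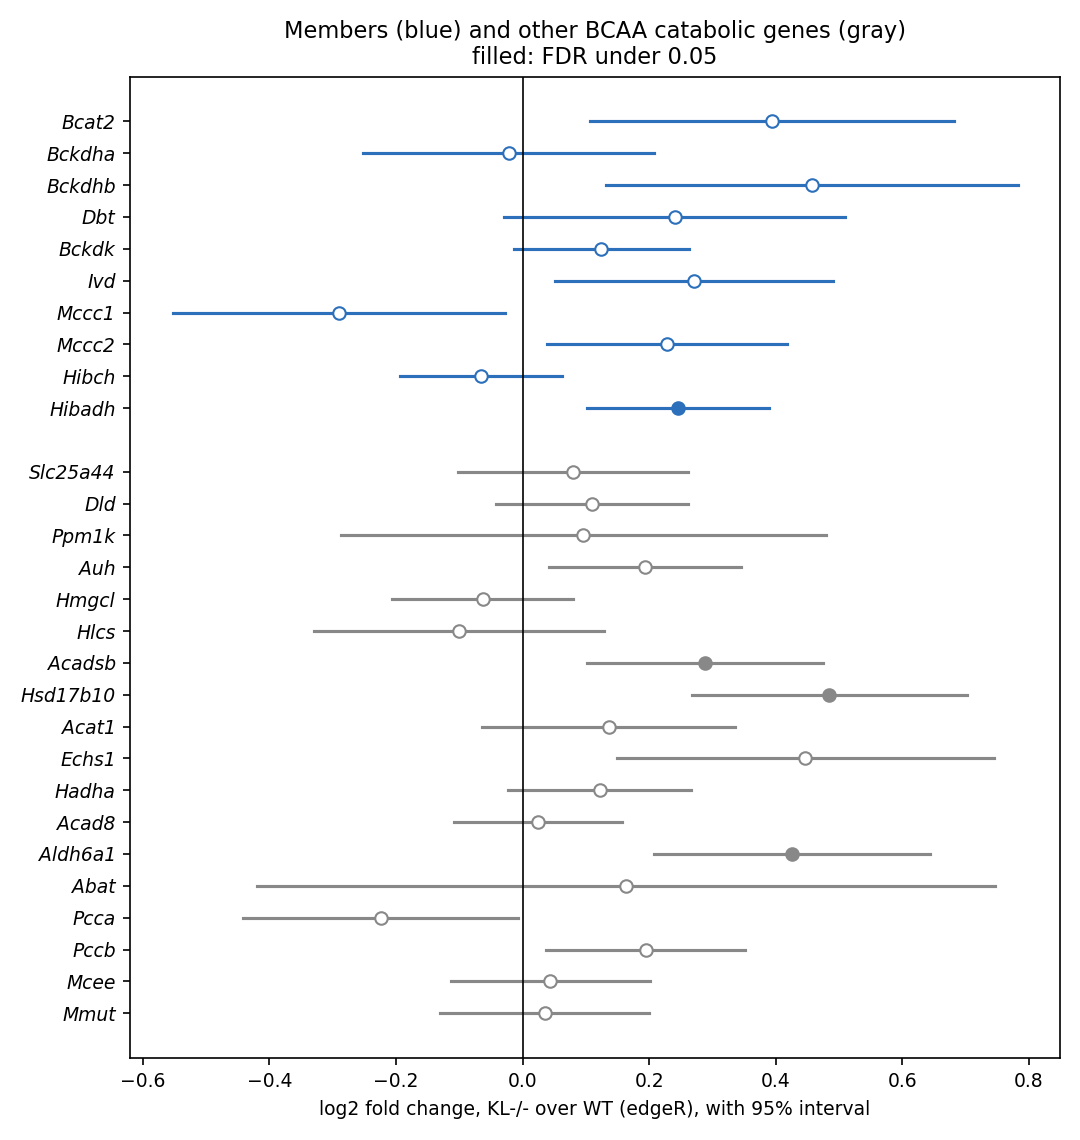
Log2 fold change of KL-/- over WT from edgeR with its 95% interval, for the 10 members in blue and the 18 other genes of BCAA catabolism in gray. Filled symbols have an FDR under 0.05, namely *Hibadh*, *Acadsb*, *Hsd17b10* and *Aldh6a1*.

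The samples of a genotype differed among themselves in these genes. WT replicate 1 had the highest level among the WT samples in 9 of the 10 members, and WT replicates 2 and 3 had the lowest in 4 and 5. How often each sample ranks so over all genes was not counted, so these ranks are not shown to be particular to the members. KL-/- replicate 4 was the highest KL-/- sample in 7 and KL-/- replicate 2 the lowest in 5. Without WT replicate 1, 5 members had an FDR under 0.05 in edgeR's quasi-likelihood fit (*Bckdhb*, *Dbt*, *Ivd*, *Mccc2* and *Hibadh*), all higher, where 5.23% of all genes did so. Without KL-/- replicate 2, the KL-/- sample farthest from the others over all genes, 3 members passed (*Bcat2*, *Bckdhb* and *Hibadh*). In that fit 12.1% of all genes were called higher, and 22.0% in either direction. Without KL-/- replicate 3, the library of the other batch date, 0 passed, where 3.25% of all genes were called higher and 2.82% lower. This was not particular to that library, since 0 also passed without WT replicate 2, WT replicate 3 or KL-/- replicate 4. In those fits 6.17% to 6.21% of all genes were called, and 6.07% without KL-/- replicate 3. With library totals 0 members were called higher and 1, *Mccc1*, lower, where 3.92% and 16.9% of all genes were. DESeq2 and the likelihood ratio test each called 3 members over all samples, also *Bcat2*, *Bckdhb* and *Hibadh*, with 10.5% and 8.17% of all genes called higher.

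**Figure D5:**
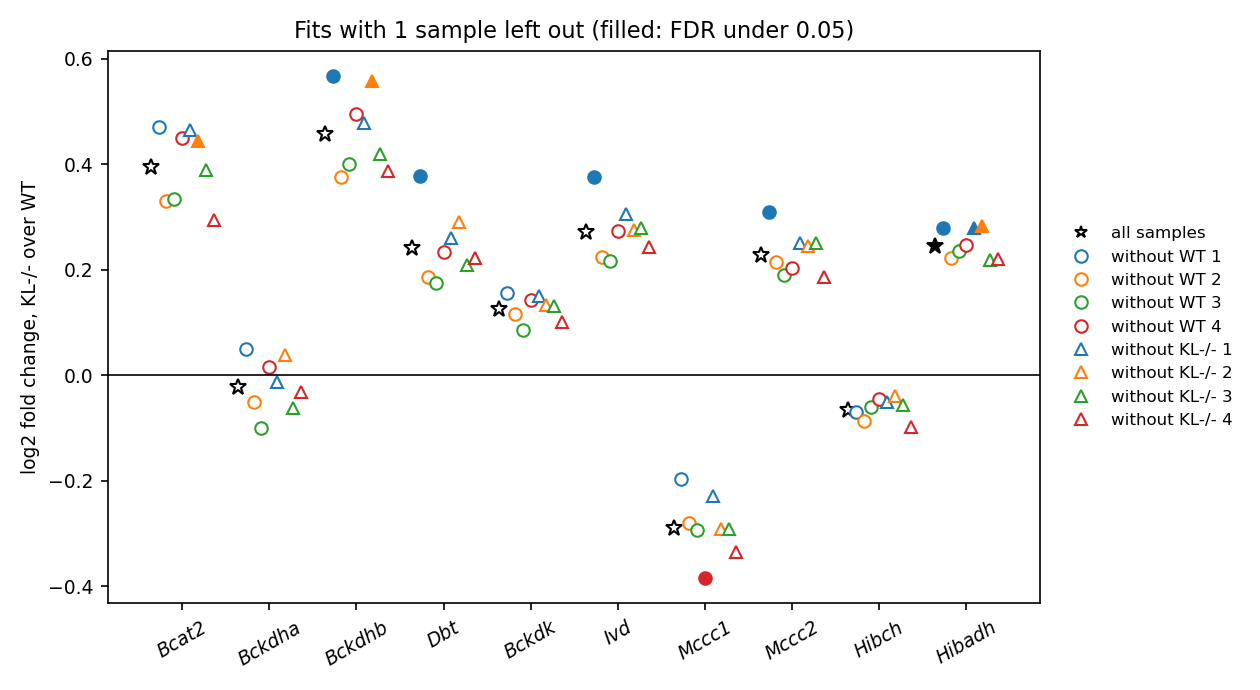
Log2 fold change of each member over all 8 samples (star) and with 1 sample left out (circles for a WT sample, triangles for a KL-/- sample, color for its replicate number). Filled symbols have an FDR under 0.05. Leaving out WT replicate 1 gives the highest value in *Bcat2*, *Bckdha*, *Bckdhb*, *Dbt*, *Bckdk*, *Ivd*, *Mccc1* and *Mccc2*, and only *Bckdha* changes sign.

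Regulators of oxidative metabolism were read in the fit to all samples, in which 7.35% of all genes were called higher and 6.67% lower. *Klf15*, for a transcription factor known to induce BCAA catabolic genes in muscle, was at 54.1, 37.2, 34.2 and 37.0 CPM in WT and at 56.9, 45.7, 82.2 and 85.4 CPM in KL-/- samples. WT replicate 1 was the highest WT sample, as in 9 members, and lay above KL-/- replicate 2. On the log2 scale the change was 0.73 ± 0.21 (standard error; FDR = 0.0488 in edgeR's quasi-likelihood test), the only call among 6 regulators, and it stayed under the threshold in 2 of 8 fits with 1 sample left out. The call was also lost with library totals (0.62, FDR = 0.0623), in limma-voom (FDR = 0.0529) and with a replicate block (FDR = 0.0936). *Ppargc1a*, the coactivator of mitochondrial genes, had a log2 fold change of 0.52 (FDR = 0.136), and *Ppargc1b* of −0.51 (FDR = 0.0602).

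Neighboring mitochondrial pathways were set beside the members, in the fit that called 14.0% of all genes. Of 17 genes of the tricarboxylic acid cycle, 1 passed, *Idh2* (log2 fold change 1.12, FDR = 0.00885), and the median was 0.086. Of 11 genes of the pyruvate dehydrogenase complex and its control, 1 passed, the kinase gene *Pdk2* (log2 fold change 0.41, FDR = 0.0441), and the median was −0.036. The 6 regulators had a median of 0.22 and the 10 skeletal muscle markers 0.25, with 9 of those 10 positive. The members' median of 0.23 was thus above the first pair of lists and close to the latter, and no difference between lists was tested.

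The 3 other genes whose profile over the 8 samples was closest to the mean profile of the members were *Nsmce4a*, *Iars* and *Fbxo11*, by root mean square difference of centered log2 CPM among 8221 genes. The differences were 0.034, 0.045 and 0.045, where the members' mean profile itself had a root mean square of 0.13. None of them passed the threshold, with FDRs of 0.175, 0.174 and 0.158. In the members' mean profile WT replicate 1 stood 0.12 above the overall mean, and the other WT samples stood at −0.18, −0.20 and −0.065. Each of the 3 genes stood above its own mean in WT replicate 1, which follows from their choice by closeness to this profile.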

How the data were processed

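Libraries were made from 100 ng of RNA per TA muscle, and the methods call the sequencing mRNA whereas the labels call it total RNA. STAR (alignment, mm10) and featureCounts (reads per gene) were the tools the authors used. The deposited values are these counts, not normalized, for genes already limited to expressed ones, with exonic lengths. The annotation and strand setting are not given in the sources used here. Counts were analyzed with edgeR 4.0.16 (R 4.3.3), using the default expression filter (12551 of 12551 genes kept), TMM factors, genotype as the only term, and the quasi-likelihood test in its current form, with Benjamini-Hochberg adjustment over all genes and a threshold of 0.05. Standard errors and 95% intervals came from the test statistic. CPM values are TMM-scaled, and log2 CPM used a prior count of 2. The tests were checked on simulated counts. Nothing in the sources pairs the samples. No 2 libraries of a genotype agreed within sampling noise (chi-square per gene of 9.91 or more).

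The members, lists and ratios were chosen with earlier results of these data known. The text names all members, the called genes of other lists or the largest changes there (up to 3 a list), ratio partners, and the 3 closest profiles among genes whose mean log2 CPM reached 3. *Dld*, *Slc25a44*, *Acad8*, *Echs1*, *Hlcs*, *Pcca*, *Pccb*, *Mcee*, *Mmut*, *Fabp4*, *Adipoq* and *B3gnt8* fall outside this rule and were chosen after their values were seen. Alternatives were RLE factors, library totals, the likelihood ratio and edgeR 3 quasi-likelihood tests (the latter chosen after seeing the data), DESeq2 1.42.0, limma-voom (limma 3.58.1), a minimum of 10 counts in every sample, no filter, a replicate block and each sample left out. Overlaps used GENCODE M21. Reads, *Kl* and protein sequences were not analyzed here.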

Additional observations from a re-analysis of the deposited data

Results flagged for a closer look

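Levels of the members, the 18 other BCAA catabolic genes and *Klf15*, and the 6 ratios, were screened in each genotype for a sample far from the other 3, 70 groups of 4 in all, in which chance marks about 1 in 20. In 2 of them a sample stood apart, both in WT replicate 1. *Ppm1k*, the BCKDH phosphatase gene, was at 34.9 CPM there and at 23.5 to 24.6 CPM in the other WT samples. *Klf15* was at 54.1 CPM there and at 34.2 to 37.2 CPM in the others.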

How the results depend on the processing

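Over 17 alternatives, 170 fold changes of members were recomputed, of which 148 kept their direction and side of the threshold, 12 came under it, 7 went above it and 3 changed sign. The setting without a filter repeats the main fit, since the default filter removed no gene. Its fits are among the 148 and could not differ. *Bckdha* turned from −0.022 to 0.051 without WT replicate 1, 0.016 without WT replicate 4 and 0.038 without KL-/- replicate 2. With library totals, which lowered all genes to a median of −0.13 (−0.016 with TMM), *Hibadh* fell to 0.13, and members called higher went from 1 to 0 and lower from 0 to 1 (*Mccc1*). The members' median stood above that of all genes by 0.25 under either scaling. This had to be so, since the choice of scaling shifts every gene by nearly the same amount. Totals also turned *Slc25a44* to −0.039, *Dld* to −0.0081, *Ppm1k* to −0.021, *Acad8* to −0.093, *Mcee* to −0.074 and *Mmut* (counted as *Mut*) to −0.083, and without KL-/- replicate 4 *Ppm1k* was −0.026. Among other BCAA genes totals called 2 higher and 1 lower (*Pcca*). DESeq2 and the likelihood ratio test each called 3 members higher. With each sample left out in turn, *Hibadh* ranged from 0.22 to 0.28, *Bckdha* from −0.099 to 0.051, *Ppm1k* from −0.026 to 0.25, members called higher from 0 (without WT replicates 2, 3 or 4 or KL-/- replicates 3 or 4) to 5 (without WT replicate 1), members called lower from 0 to 1 (*Mccc1*, without WT replicate 4) and other BCAA genes called higher from 1 to 5, the cause of which was not tested. A replicate block left *Hibadh* at 0.25 (FDR = 0.0929, edgeR), called 0 members and took all genes called from 1759 to 671. The numbers share no stated animal or litter, the deviations of same-numbered samples correlated at −0.146, 0.181, −0.368 and 0.0170, and 1 of 4 WT samples was closest to its own number, so they were not read as pairs. With 4 samples a genotype and fold changes this small, a member that missed the threshold is not shown to be equal between genotypes.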

Other observations

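Propionyl-CoA carboxylase, the enzyme on which valine and isoleucine breakdown converge, has a biotin-bearing subunit (*Pcca*) and a partner (*Pccb*), as methylcrotonyl-CoA carboxylase does. The pair was singled out after its values were seen. *Pcca* had a log2 fold change of −0.22 (FDR = 0.146, edgeR's quasi-likelihood test) while *Pccb* had 0.19 (FDR = 0.0910), so neither passed. Their ratio per kilobase, *Pccb* to *Pcca*, was 1.87, 1.96, 1.77 and 1.43 in WT and 2.42, 2.20, 2.13 and 2.58 in KL-/- samples. The genotypes did not overlap, which 19.7% of all gene pairs showed, with mean log2 ratios of 0.80 ± 0.201 and 1.22 ± 0.128 (SD, n = 4). In both carboxylases the message of the biotin-bearing subunit was thus lower relative to its partner in KL-/- muscle. A pair singled out by its values adds no weight to the other pair, and a pattern shared by both carboxylases was not tested. *Hlcs*, the ligase that attaches biotin to these enzymes, had a log2 fold change of −0.10 (FDR = 0.530).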
